A study of Zanthoxylum armatum with 24 samples.

Results

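Female flower maturation in *Zanthoxylum armatum* was described by comparing the stage F4, female development and maturation, with the stage F3, female primordia differentiation. *Z. armatum* is a prickly tree of the citrus family grown for its fruits. The study proposes that it is pseudo-dioecious, as most trees are female but male and monoecious trees and bisexual flowers also occur. The comparison used the 3 F4 libraries and the 3 F3 libraries, 6 of the 24 RNA-seq libraries of the series, which also cover the earlier female stages F1 and F2 and the male stages M1 to M4. By the study's methods, the floral buds came from trees of known sex, in F3 the female primordia are taking shape and in F4 the pistils and ovules have formed, and each library pooled the buds of several trees. Both groups are untreated, carry no genetic change and differ in stage, so the time of year and the age of the bud moved together with it. Whether a tree gave buds to more than 1 library is not stated, and the p-values given here measure the spread between pools of buds. The values are FPKM, the fragments of a gene scaled by its length and by the mapped fragments of the library, so levels of different genes are compared per length.

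Flowers are patterned by transcription factors that act in classes, most of them of the MADS-box family. In *Arabidopsis*, A class genes specify sepals and petals, and B class genes petals and stamens. The C class gene *AG* specifies stamens and carpels, and the D class genes *STK* and *SHP1* carpels and ovules. The E class *SEP* proteins are partners of the other MADS-box factors. Maturing floral organs also import and break down sugars, and the hormones cytokinin, auxin, abscisic acid (ABA) and jasmonic acid (JA) act through receptors, repressors and response genes of which many were annotated by the study. Gene names are those of the study's supplementary tables, taken from the closest *Arabidopsis* protein, and roles are those known in *Arabidopsis*.

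The ovule result turns on 2 genes that were both annotated as *ZaSTK*. The forward primers that the study designed for each of them are shown because they can be laid over each other along 22 bases, of which 20 match, and the whole genes were not compared. Capitals mark the 2 bases that differ.
Zardc33529(*ZaSTK*): tAgagaatagActtgaacgaggcat
Zardc44971(*ZaSTK*): GgagaatagGcttgaacgaggc
The sources used here do not give how reads that align to more than 1 gene were counted, so any split of reads between the *ZaSTK* genes is uncertain, as it is between the *ZaAP3* genes described further on.

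Across the transcriptome, 38734 genes reached 1 FPKM in 3 or more libraries, and their log2(FPKM + 1) values entered the limma test. A gene was called when its absolute log2 fold change was at least 1 and its Benjamini-Hochberg adjusted p at most 0.05. In F4*vs.*F3, 1648 genes were called higher, 4.25% of those tested, and 1318 were called lower, 3.40%, which together made 7.66%. Most of these changes were moderate, with 1342 of the higher and 1130 of the lower genes between 1 and 2 on the log2 scale, whereas 17 rose and 4 fell by 4 or more. The median log2 fold change of all tested genes was 0. Of the 130 annotated genes in 16 lists that are described here, 124 were tested, with 32 called higher, 7 called lower and a median log2 fold change of 0.29. Calls within each list stand against the shares of all tested genes, 4.25% higher and 3.40% lower. The 6 that missed the filter were *ZaBAM7*, *ZaAPS1*, *ZaSPSC*, *ZaBGLU17*, *ZaCKX1* and *ZaAGL91*. The sugar and hormone genes had been listed by the study from its own contrasts of stages or sexes, many of which hold F3 or F4 libraries. The study picked the floral organ and flowering time genes other than *ZaAG* from its comparisons of the sexes, which hold the F3 and F4 libraries too. By the study's text, *ZaAG* was instead looked up in the genome as the C class gene. The other lists were not independent of the F3 and F4 libraries. In bulk tissue, a fall in the number of cells of a type and a fall in RNA per cell cannot be told apart, and the same holds for rises.

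**Figure D1:**
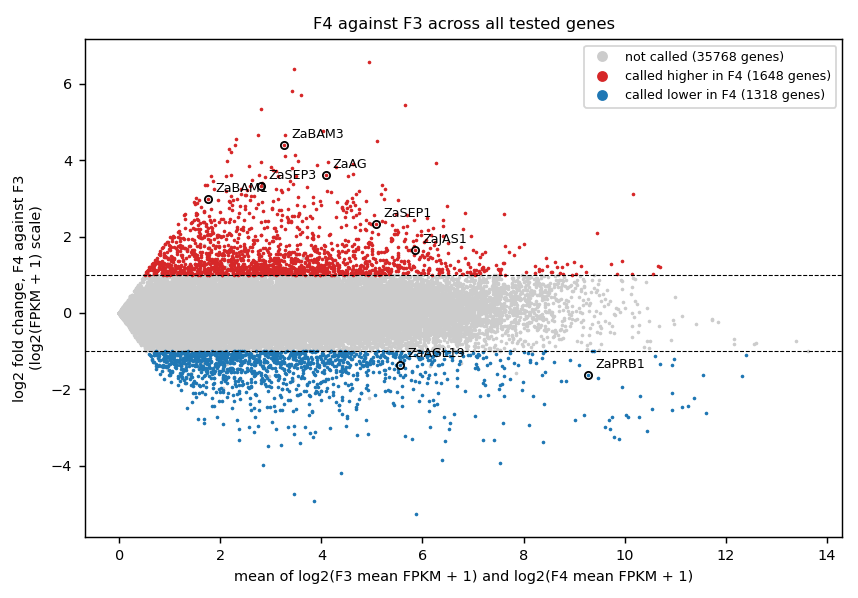
Each point is 1 of the 38734 tested genes, with the mean level in F3 and F4 on the x axis (log2 scale) and the log2 fold change of F4 against F3 on the y axis, and dashed lines mark the fold threshold of 1. The 1648 genes called higher (red) and the 1318 called lower (blue) spread over the whole range of levels, with *ZaBAM3* at 4.41 and *ZaPRB1* at -1.63 among the circled genes.

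All 4 D class genes, which mark carpels and ovules, were called higher in F4. The C class gene, which acts in stamens and carpels, was called higher too, as were 3 of the 4 E class genes. Zardc02402(*ZaAG*), the C class gene, stood at 3.91, 4.18 and 3.496 FPKM in F3 replicates 1, 2 and 3 and at 59.6, 55.9 and 58.6 FPKM in F4. The 3 F4 libraries lay close together and far above F3, with a log2 fold change of 3.604 (SE 0.217, limma adjusted p = 4.9e-11). In F1 and F2 the gene had been at 0.630 ± 0.114 and 0.839 ± 0.763 FPKM (SD, n = 3), so the largest step among the female stages came last.

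Zardc10218(*ZaSHP1*), whose *Arabidopsis* counterpart acts in carpel and fruit valve margins, rose from 1.43, 1.47 and 1.75 FPKM in F3 to 28.7, 29.5 and 30.6 FPKM in F4 (log2 fold change 3.59, SE 0.149, limma adjusted p = 1.8e-13). The second gene, Zardc17954(*ZaSHP1*), named *ZaSEP1* in another list of the study, was weaker, at 0.101, 0.549 and 0.0972 FPKM in F3 and 1.60, 4.34 and 4.27 FPKM in F4 (log2 fold change 1.76, SE 0.240, limma adjusted p = 5.2e-06). Its F4 replicate 1 was the lowest of the 3 but still above every F3 library. Both *ZaSTK* genes, the ovule identity factors, were listed at 0 in all 3 F3 libraries. Zardc44971(*ZaSTK*) reached 4.30, 5.13 and 5.27 FPKM in F4 and Zardc33529(*ZaSTK*) reached 1.35, 2.53 and 2.04 FPKM, and both were called higher (limma adjusted p = 8.8e-13 and 3.9e-09). No fold is given for them, because a value of 0 FPKM sets no lower level. Across all tested genes, 27 were listed at 0 in every F3 library with at least 1 FPKM in every F4 library, and 3 showed the reverse.

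The E class genes, all of them *ZaSEP* genes, rose with the exception of 1 copy. Zardc28170(*ZaSEP3*) went from 0.960, 1.96 and 0.809 FPKM to 18.6, 21.8 and 22.5 FPKM (log2 fold change 3.32, SE 0.236, limma adjusted p = 5.9e-10). Zardc28804(*ZaSEP2*) went from 10.02, 11.9 and 15.6 FPKM to 105.6, 104.7 and 105.4 FPKM (log2 fold change 2.996, SE 0.119, limma adjusted p = 9.1e-14). In F4 it was the most abundant of the 4 E class genes in FPKM, and its 3 libraries differed by less than 1 FPKM. Zardc32032(*ZaSEP1*) stood at 10.2, 14.6 and 17.9 FPKM in F3 and at 70.5, 72.6 and 79.9 FPKM in F4 (log2 fold change 2.34, SE 0.179, limma adjusted p = 1.8e-09). The other copy, Zardc10299(*ZaSEP2*), was at 11.9, 12.4 and 10.3 FPKM in F3 and 12.1, 12.03 and 11.4 FPKM in F4, where the groups overlapped and the gene was not called (log2 fold change 0.036, SE 0.134, limma adjusted p = 0.87). Summed over the list, the E class stood at 33.0 to 44.6 FPKM per library in F3 and at 207 to 219 FPKM in F4. The rise was not confined to female buds. From M3 to M4 the mean of Zardc28804(*ZaSEP2*) went from 16.6 to 89.0 FPKM and that of *ZaSEP1* from 19.3 to 57.1 FPKM. The female change exceeded the male change by 0.64 and 0.81 on the log2 scale, below the fold threshold.

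**Figure D2:**
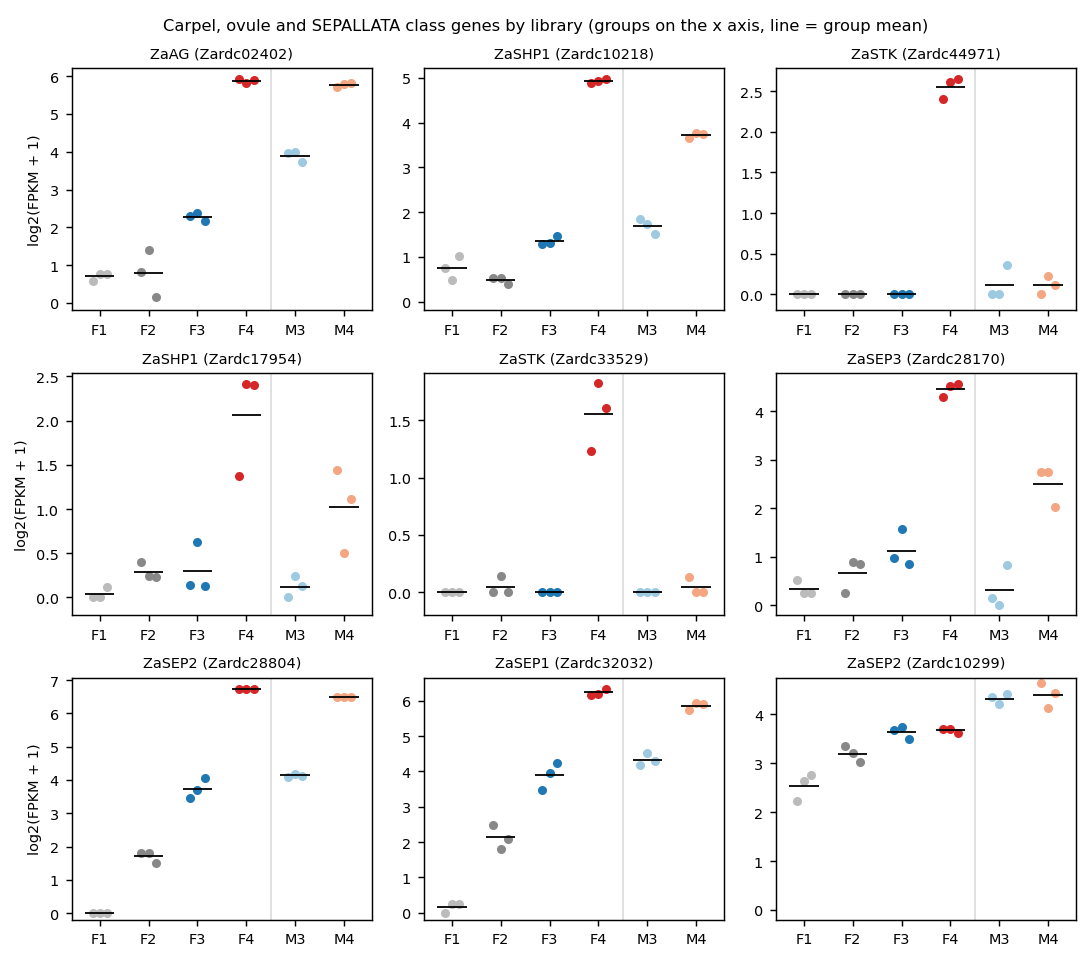
Each panel shows 1 gene, with log2(FPKM + 1) on the y axis, 1 point per library and a line at the group mean, for the female stages F1 to F4 and the male stages M3 and M4. *ZaAG*, *ZaSHP1*, *ZaSTK* and 3 of the 4 *ZaSEP* genes reach their highest female level in F4, while Zardc10299(*ZaSEP2*) stays between 10.3 and 12.4 FPKM in F3 and F4 and both *ZaSTK* genes are near 0 outside F4.

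B class genes were present at low levels. Of the 11 tested, 3 *ZaAP3* copies were called higher, none was called lower, and the median log2 fold change was 0.71 against 0 over all tested genes. At any fold, 9 passed the adjusted p in the higher direction, where 21.6% of all tested genes did. The count depended on the scale of these weak genes, with 9 called at a pseudocount of 0.1, 6 at 0.5 and 0 in the limma test against the fold threshold itself. The summed level of the list was 2.91 to 3.96 FPKM per library in F3 and 13.2 to 15.9 FPKM in F4, after at most 0.706 FPKM in F1 and 0.531 FPKM in F2, and against 162 to 184 FPKM in M4, the stage of male maturation. Zardc42253(*ZaAP3*) was at 0, 0.342 and 0 FPKM in F3 and at 1.57, 1.38 and 2.77 FPKM in F4, and Zardc42251(*ZaAP3*) at 0.278, 0.252 and 0 FPKM against 1.85, 1.99 and 1.10 FPKM (limma adjusted p = 3.5e-05 and 3.2e-04). Both were above every F3 library in all F4 libraries. One more copy, Zardc41656(*ZaAP3*), stood at 0.730, 0.165 and 0.176 FPKM in F3 and at 3.64, 1.84 and 0.643 FPKM in F4. Its groups overlapped, and its log2 fold change of 1.07 (SE 0.317, limma adjusted p = 0.010) fell to 0.97 without F3 replicate 2, to 0.97 without F3 replicate 3 and to 0.70 without F4 replicate 1, each below the threshold.

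Zardc17043(*ZaPI*), which together with *AP3* specifies stamens, was at 1.78, 1.97 and 3.05 FPKM in F3 and 4.12, 4.33 and 5.403 FPKM in F4, and was not called (log2 fold change 0.80, SE 0.165, limma adjusted p = 5.8e-04). Zardc41639(*ZaAP3*) was listed at 0 in F3 and at 0.419, 1.49 and 0.888 FPKM in F4, and was not called, but it was called when F4 replicate 1 was left out and with pseudocounts of 0.1 and 0.5. The carpel and ovule markers *ZaSTK* and *ZaSHP1* together reached 36.0 to 42.2 FPKM per library in F4 and 1.53 to 2.02 FPKM in F3, where both *ZaSTK* genes were at 0. In M4 the same sum was 13.3 to 13.7 FPKM, most of it from Zardc10218(*ZaSHP1*), at a mean of 12.2 FPKM. The M4 means of Zardc44971(*ZaSTK*) and Zardc33529(*ZaSTK*) were 0.0843 and 0.0325 FPKM. The summed genes are the D class genes given above, so the sum is no separate check of the labels.

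In the A class, Zardc39101(*ZaAP1*), a factor for floral meristem and sepal identity, rose from 9.32, 9.19 and 11.4 FPKM to 27.3, 25.2 and 25.4 FPKM (log2 fold change 1.30, SE 0.118, limma adjusted p = 2.0e-08). Zardc30916(*ZaAP2*) was at 30.7, 33.9 and 29.8 FPKM in F3 and 47.2, 45.9 and 46.5 FPKM in F4, without overlap, but its log2 fold change of 0.55 was below the fold threshold (SE 0.0580, limma adjusted p = 1.6e-07). The second *ZaAP1* copy, Zardc39213, was at 1.52, 2.1998 and 1.02 FPKM in F3 and 1.39, 0.768 and 2.14 FPKM in F4 and was not called. Its direction turned from a log2 fold change of -0.10 to 0.07 without F3 replicate 2 and to 0.11 without F4 replicate 2.

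Among the flowering time genes, 3 of the 13 tested were called lower and 1 higher, with a median log2 fold change of -0.48. Zardc08871(*ZaAGL19*), a floral activator in the *SOC1* family, fell from 77.8, 82.7 and 62.0 FPKM to 27.2, 27.7 and 29.9 FPKM (log2 fold change -1.35, SE 0.0971, limma adjusted p = 6.9e-10), so that all F4 libraries were below all F3 libraries. Zardc51954(*ZaSOC1*), which integrates flowering signals, was at 2.18, 1.48 and 4.46 FPKM in F3 and 0.681, 1.15 and 0 FPKM in F4 (log2 fold change -1.19, SE 0.317, limma adjusted p = 0.0047). The call rested on few libraries, since the value was -0.87 without F3 replicate 3 and -0.88 without F4 replicate 3. Zardc51499(*ZaFYF*), named for a repressor of flower senescence and abscission, went from 9.09, 12.2 and 5.55 FPKM to 3.62, 3.02 and 3.72 FPKM (log2 fold change -1.10, SE 0.189, limma adjusted p = 8.0e-05), and was at -0.87 without F3 replicate 2.

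The gene that rose in this list was Zardc02276(*ZaAGL15*), named for a MADS-box factor of embryos that also delays flowering. It stood at 0.110, 0.298 and 0.317 FPKM in F3 and at 2.19, 3.05 and 3.58 FPKM in F4 (log2 fold change 1.65, SE 0.189, limma adjusted p = 5.4e-07). The F1 and F2 means were 0.161 and 0.213 FPKM, so F4 was the 1 female stage with a mean above 1 FPKM. A second *ZaFYF* gene, Zardc33025, was at 22.6 to 30.2 FPKM in F3 and 14.5 to 17.1 FPKM in F4 (log2 fold change -0.70), and Zardc19106(*ZaAGL82*) at 10.1 to 13.4 FPKM and 6.41 to 7.63 FPKM (log2 fold change -0.61). Neither was called, although the groups of both were apart.

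Among genes of sugar metabolism, the calls went in 1 direction. Over the 5 sugar lists, 15 of 34 tested genes were called higher and none lower, and the median log2 fold change was 0.95. The study drew 19 of the 38 listed genes from this same contrast as up-regulated, all 15 called genes are among them, and none of the 16 other tested genes was called, so the count is not independent evidence of direction. With the fold threshold set aside, all 18 tested genes drawn from this contrast passed an adjusted p of 0.05 in the higher direction, which the choice had fixed in part. Of the 16 others, 5 passed, against 21.6% of all tested genes, and none passed in the lower direction, against 19.6%.

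Of 8 tested starch genes, 5 were called higher, with a median of 1.04. The largest rises of the sugar lists were those of the beta-amylases, which release maltose from starch. Zardc31704(*ZaBAM3*) rose from 1.38, 0.877 and 1.03 FPKM in F3 to 39.5, 46.9 and 43.4 FPKM in F4 (log2 fold change 4.41, SE 0.132, limma adjusted p = 1.3e-15). Zardc34000(*ZaBAM1*) was at 0.0489, 0 and 0.565 FPKM in F3 and at 6.599, 9.28 and 9.40 FPKM in F4 (log2 fold change 2.98, SE 0.184, limma adjusted p = 6.9e-11). Both had stayed under 2 FPKM on average in F1 and F2, whereas Zardc08999(*ZaAMY2*), an alpha-amylase, was at 1.70 to 2.53 FPKM in F3 and 3.07 to 4.05 FPKM in F4 and was not called (log2 fold change 0.64, SE 0.173, limma adjusted p = 0.0056). The starch branching enzyme Zardc06800(*ZaBE1*) rose from 6.99, 7.12 and 8.35 FPKM to 16.1, 18.0 and 15.9 FPKM (log2 fold change 1.06, SE 0.0886, limma adjusted p = 6.4e-09). Zardc33027(*ZaPGMP*), named for a phosphoglucomutase that feeds starch synthesis, was at 23.6 to 24.5 FPKM in F3 and 48.0 to 51.2 FPKM in F4 (log2 fold change 1.02, called). The main text of the study gives this ID as *ZaTPS11* instead, so its role is uncertain. For the other branching enzyme, Zardc12008(*ZaSBE2.2*), 1 library decided the call. It was at 1.37, 0.5005 and 1.06 FPKM in F3 and at 2.35, 2.55 and 10.1 FPKM in F4, and the log2 fold change of 1.39 (SE 0.367, limma adjusted p = 0.0045) was 0.83 without F4 replicate 3. Zardc48948(*ZaAPL3*), a subunit of the enzyme that makes ADP-glucose for starch, was at 37.8, 38.9 and 44.4 FPKM in F3 and 41.2, 37.1 and 43.5 FPKM in F4. It was not called, and its log2 fold change of 0.0089 turned negative in 5 of the 18 alternatives tried.

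In the list for sucrose and hexoses, 2 of 5 tested genes were called higher and the median was 0.98. Both encode invertases, enzymes that split sucrose. Zardc31270(*ZaVI1*), a vacuolar invertase, rose from 2.67, 4.02 and 4.53 FPKM to 8.80, 11.01 and 9.16 FPKM (log2 fold change 1.18, SE 0.228, limma adjusted p = 2.7e-04). Zardc45769(*ZaCWI1*), a cell wall invertase, rose from 4.72, 3.098 and 4.45 FPKM to 10.7, 7.71 and 10.1 FPKM (log2 fold change 1.05, SE 0.161, limma adjusted p = 2.2e-05), but was at 0.90 without F3 replicate 2 and at 0.97 without F4 replicate 1. Zardc33026(*ZaFRK1*), a fructokinase, lay just below the threshold. It was at 6.92, 7.74 and 7.52 FPKM in F3 and 14.7, 17.5 and 14.6 FPKM in F4, with a log2 fold change of 0.98 (SE 0.117, limma adjusted p = 9.8e-07), and was called at 1.01 without F3 replicate 2, at 1.02 without F4 replicate 1 and at 1.02 without F4 replicate 3. Zardc36683(*ZaSUS2*), a sucrose synthase, stayed under 1 FPKM in all 6 libraries and was not called.

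Of the trehalose genes, 3 of 7 were called higher, with a median of 0.67. Zardc31272(*ZaTPPF*), a trehalose phosphate phosphatase, rose from 0.497, 1.09 and 0.683 FPKM to 5.79, 3.77 and 5.12 FPKM (log2 fold change 1.74, SE 0.196, limma adjusted p = 4.2e-07). Zardc11194(*ZaTPPI*), of the same family, rose from 1.01 to 1.40 FPKM in F3 to 3.02 to 4.70 FPKM in F4 (log2 fold change 1.11), and was at 0.98 without F4 replicate 3. The *ZaTPS11* gene under an ID added by the authors, which encodes a trehalose phosphate synthase, rose from 3.04 to 3.46 FPKM to 7.72 to 8.63 FPKM (log2 fold change 1.11, SE 0.121, limma adjusted p = 2.9e-07). Its namesake Zardc08022(*ZaTPS11*) was at 7.34 to 7.57 FPKM in F3 and 12.3 to 12.5 FPKM in F4, apart but not called (log2 fold change 0.67), and Zardc11215(*ZaTPPD*) was at 0.190 to 0.404 FPKM and 0.408 to 1.53 FPKM (log2 fold change 0.59).

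Of the 5 raffinose family genes, 1 was called higher, with a median of 0.50. Zardc07320(*ZaSIP1*), named for a seed imbibition protein of the raffinose synthase family, was at 42.7, 42.1 and 39.4 FPKM in F3 and at 109.7, 116 and 112 FPKM in F4 (log2 fold change 1.42, SE 0.0420, limma adjusted p = 9.9e-16). Its F4 level was below those of the earlier stages, which were 183 ± 7.998 FPKM in F1 and 171 ± 0.326 FPKM in F2 (SD, n = 3), so F3 was the lowest female stage. Zardc23456(*ZaRS5*), a raffinose synthase, was at 5.32 to 7.10 FPKM in F3 and 11.9 to 13.7 FPKM in F4, and its log2 fold change of 0.94 was called at 1.02 without F3 replicate 3. Zardc03128(*ZaSIP2*), an alkaline alpha-galactosidase, was at 56.5 to 66.0 FPKM and 81.4 to 92.3 FPKM and was not called (log2 fold change 0.50).

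Of the glycosidases, 4 of 9 tested were called higher, with a median of 0.95. Zardc54087(*ZaBGLU44*), a beta-glucosidase, rose from 49.2, 50.5 and 42.2 FPKM to 129.6, 117 and 122 FPKM (log2 fold change 1.36, SE 0.0808, limma adjusted p = 4.0e-11). Zardc32360, annotated to carbohydrate metabolism without a symbol, rose from 8.31, 6.89 and 6.14 FPKM to 18.1, 19.4 and 19.0 FPKM (log2 fold change 1.30, SE 0.0816, limma adjusted p = 9.2e-11). The endoglucanases, which cut glucan chains in the cell wall, were Zardc31209(*ZaCEL2*) at 1.08 to 3.71 FPKM against 5.70 to 6.99 FPKM (log2 fold change 1.26) and Zardc01552(*ZaGH9B1*) at 2.23 to 4.63 FPKM against 7.46 to 9.49 FPKM (log2 fold change 1.15). Both were called, the latter at 0.96 and thus below the threshold without F3 replicate 3. For *ZaBGLU44*, Zardc32360, *ZaCEL2*, *ZaGH9B1*, Zardc27757 and Zardc01536, the F3 mean was the lowest of the 4 female stages. The F1 means of *ZaBGLU44*, *ZaGH9B1* and Zardc27757 were 111, 9.12 and 12.3 FPKM. The F2 means of Zardc32360, Zardc27757 and Zardc01536, at 20.1, 13.4 and 9.90 FPKM, were above their F4 means. Zardc27757, annotated like Zardc32360, was at 5.19 to 5.59 FPKM in F3 and 11.2 to 11.9 FPKM in F4 (log2 fold change 0.95, SE 0.0862, limma adjusted p = 2.0e-08) and Zardc01536 at 4.84 to 5.404 FPKM and 6.89 to 8.30 FPKM (log2 fold change 0.52), and neither was called.

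**Figure D3:**
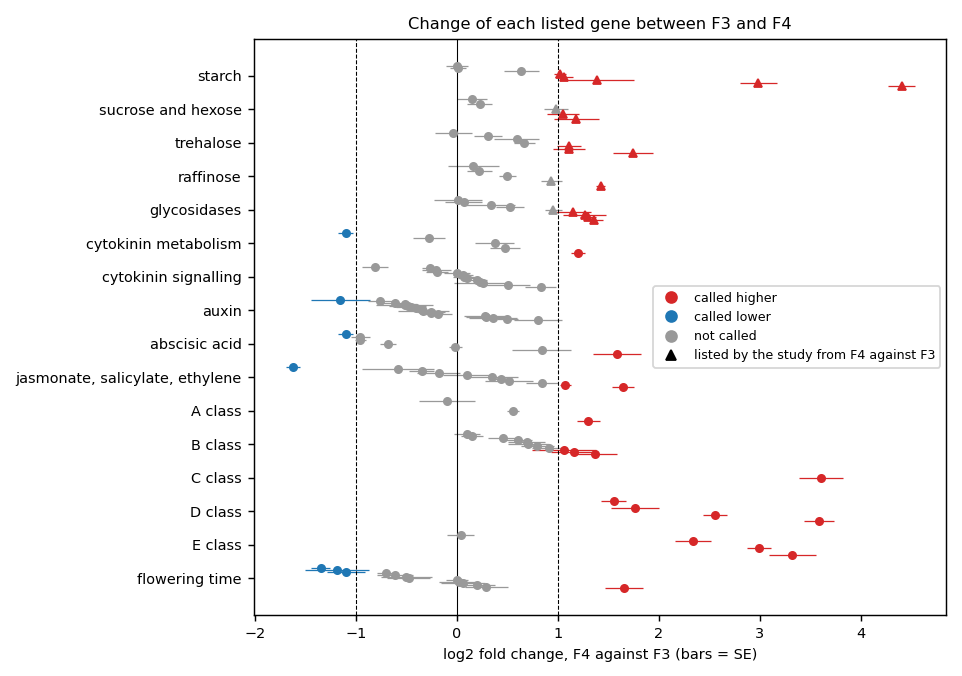
Each point is 1 of the 124 tested genes of the 16 lists, placed by its log2 fold change in F4 against F3 with its SE, and triangles mark genes that the study had listed from this contrast. The called sugar genes are all triangles, the C and E class genes lie between 2.34 and 3.604 except for 1 at 0.036, and the auxin and ABA lists lean to the left. For genes listed at 0 in F3 the position depends on the pseudocount.

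In the cytokinin metabolism list, the called cytokinin oxidases moved in opposite directions. Zardc24534(*ZaCKX5*) rose from 39.3, 34.6 and 35.9 FPKM to 80.5, 87.6 and 87.7 FPKM (log2 fold change 1.20, SE 0.0656, limma adjusted p = 1.1e-11), and Zardc46645(*ZaCKX3*) fell from 3.32, 3.40 and 3.09 FPKM to 1.29, 0.979 and 0.731 FPKM (log2 fold change -1.10, SE 0.0766, limma adjusted p = 4.1e-10). *ZaCKX3* had been at 132 ± 6.27 FPKM in F1 (SD, n = 3), so both F3 and F4 were low. A further oxidase gene, *ZaCKX6*, was at 1.10 to 1.35 FPKM in F3 and 0.622 to 1.20 FPKM in F4. Its groups overlapped and it was not called (log2 fold change -0.27, limma adjusted p = 0.18). The glucosyltransferases Zardc19469(*ZaUGT85A4*) and Zardc45722(*ZaUGT85A1*) had log2 fold changes of 0.48 and 0.38 and were not called. None of the 13 cytokinin receptor and response genes was called, with a median of 0.07. At any fold, 2 in each direction passed the adjusted p of limma. Of all tested genes, 21.6% passed in the higher and 19.6% in the lower direction. The nearest to a call were the response regulators Zardc48440(*ZaARR11*), at 3.45 to 4.35 FPKM in F3 and 6.73 to 8.47 FPKM in F4 (log2 fold change 0.83), and Zardc54051(*ZaARR12*), at 3.04 to 4.36 FPKM and 1.61 to 1.90 FPKM (log2 fold change -0.82).

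For auxin, 1 of 18 genes was called lower, none higher, and the median log2 fold change was -0.34. At any fold, 8 of the 18 passed the adjusted p in the lower direction and 2 in the higher direction, where 19.6% and 21.6% of all tested genes did. The study had listed a part of its auxin genes as up-regulated in F3 against F1, a contrast with the same F3 libraries. The lean to lower values in F4 is therefore not independent evidence of direction. The called gene, *ZaSAUR53* of the small auxin up RNA family, was at 2.33, 3.75 and 2.24 FPKM in F3 and 1.08, 0.327 and 0.683 FPKM in F4 (log2 fold change -1.15, SE 0.290, limma adjusted p = 0.0031), and was not called at -0.98 without F3 replicate 2 and at -0.99 without F4 replicate 2. Of the same family, *ZaSAUR32* was at 13.2 to 13.5 FPKM in F3 and 6.28 to 8.87 FPKM in F4 (log2 fold change -0.76), and *ZaSAUR52* at 1.08 to 3.39 FPKM and 4.24 to 5.32 FPKM (log2 fold change 0.81, called at 1.02 without F3 replicate 3).

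Of the 7 ABA genes, 1 was called lower and 1 higher. The clade A phosphatases, which hold ABA signalling off until the receptors bind ABA, were all lower in F4 without overlap. The study had listed them from F3 against F1, a contrast with the same F3 libraries, so their direction here is not independent evidence. Zardc53596(*ZaAIP1*) fell from 100.3, 101 and 92.6 FPKM to 43.4, 47.0 and 44.9 FPKM (log2 fold change -1.10, SE 0.0716, limma adjusted p = 1.5e-10). Zardc09485(*ZaAHG3*) was at 113, 107 and 109 FPKM in F3 and 58.6, 59.0 and 50.9 FPKM in F4 (log2 fold change -0.96, SE 0.0553, limma adjusted p = 2.7e-11). Zardc46850(*ZaAHG1*) was at 60.4, 64.2 and 61.1 FPKM and 29.4, 33.0 and 31.7 FPKM (log2 fold change -0.96, SE 0.0940, limma adjusted p = 6.2e-08). The other phosphatase of the list, *ZaHAB1*, was at 60.3 to 76.8 FPKM and 40.3 to 44.7 FPKM (log2 fold change -0.68), and the last 3 passed the adjusted p but missed the fold threshold. The receptor gene Zardc28302(*ZaPYL4*) moved the other way, from 1.20, 0.495 and 0 FPKM to 3.28, 4.51 and 2.79 FPKM (log2 fold change 1.59, SE 0.236, limma adjusted p = 1.6e-05).

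In the list of JA, salicylic acid and ethylene genes, 2 of 11 were called higher and 1 lower. Both that rose encode JAZ-type repressors of JA responses. Zardc02254(*ZaJAS1*) went from 32.6, 31.1 and 31.5 FPKM to 102, 104 and 98.6 FPKM, and Zardc06900(*ZaJAZ1*) from 85.9, 79.6 and 83.9 FPKM to 179, 179 and 170.04 FPKM (log2 fold change 1.07, SE 0.0516, limma adjusted p = 1.6e-12). After quantile normalization the value of *ZaJAZ1* was 0.97, below the threshold. Zardc49467(*ZaPRB1*), a pathogenesis-related protein gene, was among the abundant genes and fell from 983, 1141 and 1143 FPKM to 369, 336 and 349.9 FPKM (log2 fold change -1.63, SE 0.0700, limma adjusted p = 3.1e-13). The F4 level lay near the 349 ± 23.9 FPKM of F1 (SD, n = 3). Zardc26876(*ZaERF2*), an ethylene response factor, was at 7.46 to 9.85 FPKM and 14.3 to 18.6 FPKM (log2 fold change 0.84, not called). Zardc13708(*ZaCAPE3*), named for a precursor of a small defence peptide, overlapped between the groups and had a log2 fold change of -0.58 that was called at -1.01 without F3 replicate 1.

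**Figure D4:**
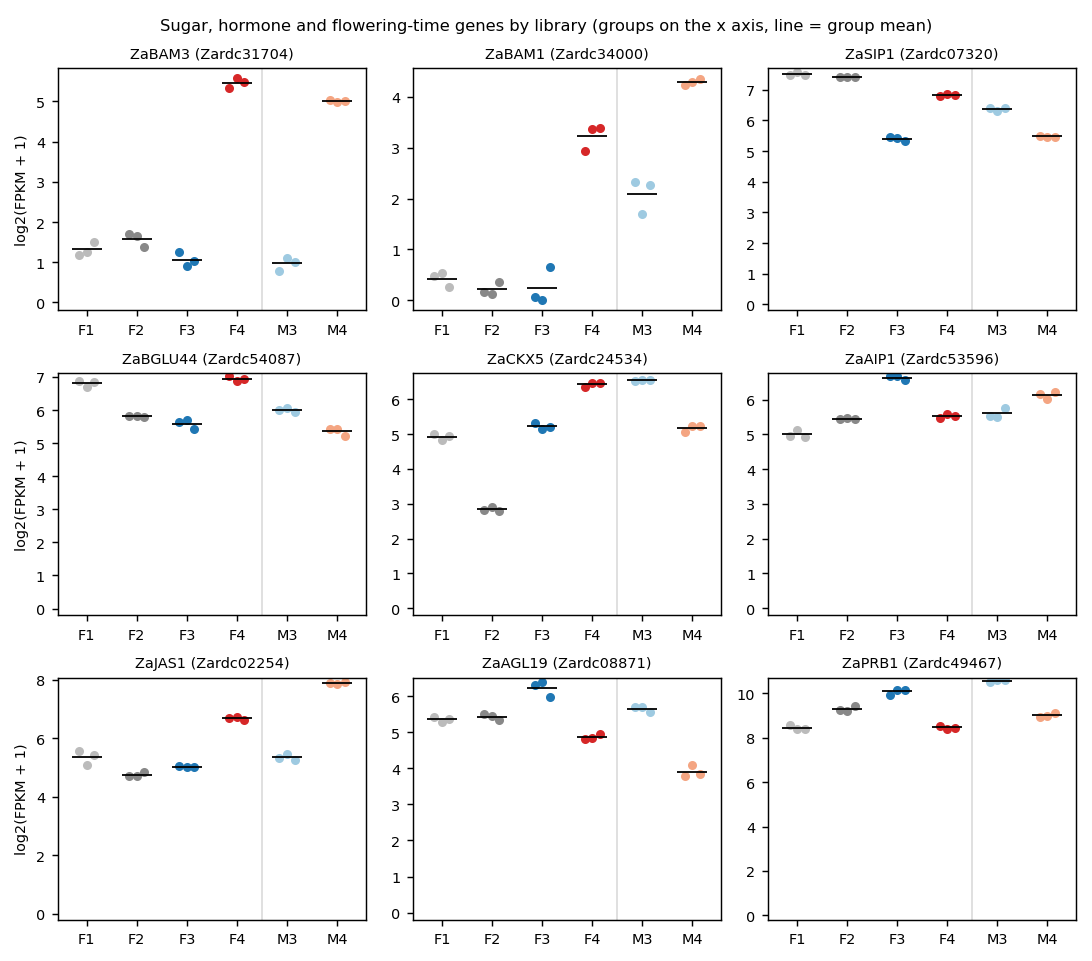
Each panel shows 1 gene, with log2(FPKM + 1) on the y axis, 1 point per library and a line at the group mean, for F1 to F4, M3 and M4. *ZaBAM3* and *ZaBAM1* step up in F4, *ZaSIP1* and *ZaBGLU44* have their lowest female level in F3, *ZaAIP1*, *ZaAGL19* and *ZaPRB1* have their highest female level in F3, and *ZaCKX5* runs in opposite directions in the 2 sexes.

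The called genes were also placed among the female stages. The call already sets F4 apart from F3, so the counts that follow were fixed in part by it. Shares over all tested genes were not taken. Of the 1648 genes called higher, 1426 had their highest female mean in F4, and of the 1318 called lower, 1053 had their lowest female mean in F4. For 774 of the higher genes F3 was the lowest female stage, and for 864 of the lower genes it was the highest. The 3 F4 libraries lay above the 3 F3 libraries without overlap in 24.6% of all tested genes and below them in 23.0%, and in the lists in 60 and 25 of the 124 tested genes. The called gene without separation in the lists was Zardc41656(*ZaAP3*).

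The largest changes among genes outside the lists that did not overlap were in genes without an annotation in the sources used here. Zardc18664 rose from 1.36, 1.93 and 3.36 FPKM in F3 to 302, 287 and 297 FPKM in F4 (log2 fold change 6.58, SE 0.599, limma adjusted p = 2.2e-08), and Zardc51469 from 0, 0 and 0.618 FPKM to 106.8, 87.2 and 100.1 FPKM (log2 fold change 6.39, SE 0.250, limma adjusted p = 7.1e-14). Both were under 1 FPKM in every F1 and F2 library. Zardc39353 fell from 359, 361 and 366 FPKM to 7.61, 9.11 and 8.64 FPKM (log2 fold change -5.27, SE 0.0688, limma adjusted p = 1.1e-20), and Zardc00147 from 76.4, 85.5 and 71.5 FPKM to 0.921, 2.44 and 1.57 FPKM (log2 fold change -4.93, SE 0.145, limma adjusted p = 9.8e-16). From F1 to F3 the levels of Zardc39353 lay between 153 and 366 FPKM, so that its low level was seen in F4 alone among the female stages.

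The same step was compared with male maturation, M4*vs.*M3, which shares no library with F4*vs.*F3 but was part of the same fit. In males 1743 genes were called higher, 4.50% of those tested, and 1249 lower, 3.22%. The genes called higher in both sexes numbered 789, 47.9% of the female and 45.3% of the male higher genes, and 629 were lower in both, 47.7% and 50.4%. Opposite calls were rare, with 9 genes higher in females and lower in males and 2 the other way. Across the tested genes, which are not independent replicates, the log2 fold changes of the sexes had a Pearson r of 0.628. Genes called in females and not in males numbered 850 higher and 687 lower, but this alone does not show a difference between the sexes.

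The difference between the female and the male change was therefore tested itself. It was called positive in 1115 genes, 2.88% of those tested, and negative in 992, 2.56%, together 5.44%. Of the 1648 genes higher in F4, 443 had a called positive difference, and of the 1318 lower genes, 171 had a called negative one. Both counts are tied to the choice of genes, because the difference contains the F4 against F3 change by which they were called. Among the 124 listed genes the difference was called positive in 17 and negative in 19. It was positive for 3 of the 4 D class genes, for *ZaAG* and for 1 E class gene, and negative for 5 of the 11 B class genes. The study had picked the B, D and E class genes from its comparisons of the sexes, M4*vs.*F4 among them. The difference contains that comparison, so these signs were fixed in part by the choice. The *ZaAG* difference was 1.73 (SE 0.307, limma adjusted p = 3.2e-04), although its levels were alike in the end, at 58.0 ± 1.88 FPKM in F4 and 53.8 ± 2.08 FPKM in M4 (SD, n = 3), since M3 had started higher, at 14.0 ± 1.49 FPKM. Both *ZaSTK* genes stayed under 0.4 FPKM in every M3 and M4 library.

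Among the beta-amylases, *ZaBAM2* was listed at 0 in F3 and F4 and had means of 3.40 and 3.52 FPKM in M3 and M4. The rise of *ZaBAM3* was shared, at 31.1 ± 0.355 FPKM in M4 (SD, n = 3) and with a difference between the sexes of 0.37 that was not called (SE 0.187, limma adjusted p = 0.19). *ZaBAM1* also rose in males, from a mean of 3.36 FPKM in M3 to 18.5 FPKM in M4. Its difference of 0.795 (SE 0.260, limma adjusted p = 0.035) missed the fold threshold. In contrast, *ZaCKX5* went from 93.0 ± 1.15 FPKM in M3 to 35.2 ± 2.49 FPKM in M4 while it rose in females, a difference of 2.58 (SE 0.0927, limma adjusted p = 2.6e-13). *ZaSIP1* and *ZaBGLU44* were also lower in M4 than in M3, at 43.6 against 82.6 FPKM and at 40.2 against 63.2 FPKM, with differences between the sexes of 2.33 and 2.005 (limma adjusted p = 1.8e-15 and 1.3e-10). *ZaAIP1* had a difference of -1.64 (SE 0.101, limma adjusted p = 3.8e-10), with 47.6 ± 4.77 FPKM in M3 and 69.5 ± 4.81 FPKM in M4.

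**Figure D5:**
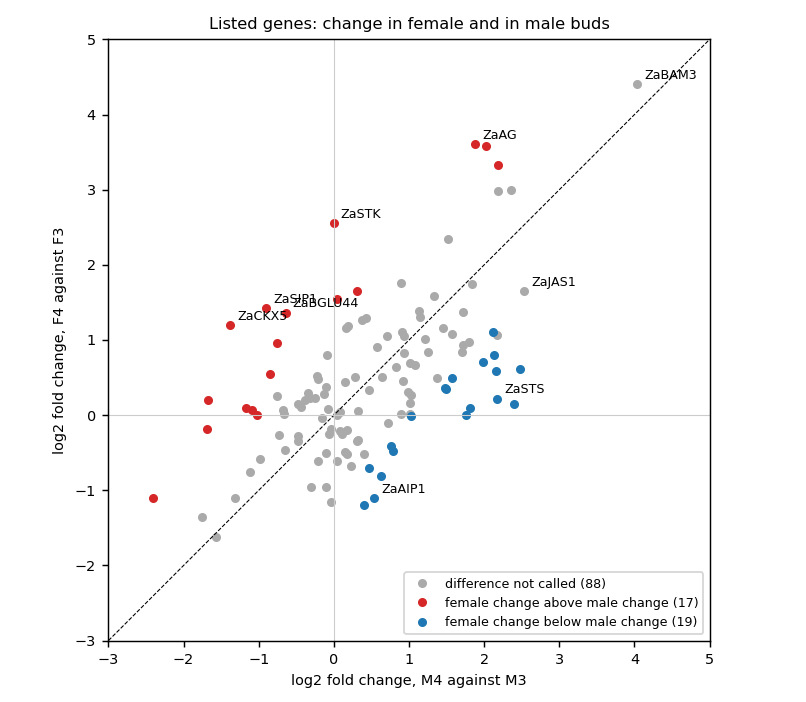
Each point is 1 of the 124 tested genes of the lists, with the log2 fold change of M4 against M3 on the x axis and that of F4 against F3 on the y axis, and the dashed line marks equal changes. Red points (17 genes) lie above the line and blue points (19 genes) below it with a called difference, *ZaCKX5* and *ZaSIP1* rise in females and are lower in M4 than in M3, and *ZaBAM3* lies near the line.

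Squared Pearson correlations of log2(FPKM + 1) were 0.957 to 0.968 within F3, 0.969 to 0.970 within F4 and 0.882 to 0.887 between F3 and F4, and F4 was as near to M4, at 0.884 to 0.895, as to F3. Depth relative to F3 replicate 1, read from the step size of low FPKM values, was at most 1.10 in F3 and 1.135 to 1.20 in F4. Genes with at least 1 FPKM numbered 33325 to 33481 in F3 and 33205 to 33259 in F4. Between 7.93 and 8.60% of the summed FPKM of a library came from its 10 leading genes in F3, and between 4.44 and 4.81% in F4. In the study's own sequencing records, which were not analysed here, the share of reads that mapped was higher in every F4 library than in every F3 library, and the lowest RNA integrity values of these stages were in F3. The part of either in the changes between F3 and F4 was not tested. For the number of genes and the share of the leading genes an exact two-sided permutation test gave p = 0.1, the smallest that 3 libraries against 3 allow.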

How the data were processed

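Total RNA of female and male floral buds was sequenced by the authors with 3 libraries per stage. The deposited values are FPKM per gene, made by the authors from reads aligned to a published *Z. armatum* genome and counted with HTSeq. The submitters' processing notes also name Bowtie 0.12.2 and a mouse build, which cannot be the genome of these genes, and no source used here gives another aligner. The tables hold 60592 genes per library, and 5257 IDs were added by the authors. No read counts were used, and depth was read from the files only relative to 1 library. Values carry SDs or standard errors. The third M2 library was left out because its values cover 183 genes under the column header of an M3 library.

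A pseudocount of 1 was added and values were taken to log2, which understates fold changes of weak genes. Limma 3.58.1 in R 4.3.3 with the package data.table (version 1.17.8) fitted 23 libraries in 8 groups with a trended prior, and p-values were adjusted by Benjamini-Hochberg over the 38734 tested genes. The script was tested on simulated data. Python 3.11.15 served for library measures and figures (scipy 1.17.1, pandas 2.3.3, numpy 2.4.6, matplotlib 3.10.9). In each list, values are given for up to 4 called genes with the largest change and up to 2 that missed the call, and beyond the lists for the 2 higher and 2 lower unannotated genes without overlap. Members and lists were chosen with earlier results of these data known. Alternatives were a test against the fold threshold, no adjustment of p, pseudocounts of 0.1 and 0.5, other filters, quantile and median ratio scaling, smaller fits, no trend, a replicate block and each library left out. Count tests were not run, as the values are FPKM.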

Additional observations from a re-analysis of the deposited data

Results flagged for a closer look

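For 22 of the 69 genes given by library, the change from F3 to F4 differed from the change from M3 to M4 by the test of the difference itself, 14 with the female change above the male change and 8 below (limma, all groups in 1 fit, 3 libraries per group). Over all tested genes the difference was called in 5.44%. The 69 genes were picked by the size of their change from F3 to F4, which is part of the difference. Their higher share was therefore fixed in part by the choice. Apart from *ZaAG*, the floral organ and flowering time genes were also picked by the study from comparisons of the sexes, which the difference contains. Values are differences of log2 fold changes on the log2(FPKM + 1) scale.

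Among the floral organ genes the difference was 1.73 for Zardc02402(*ZaAG*), 1.56 for Zardc10218(*ZaSHP1*), 1.15 for Zardc28170(*ZaSEP3*) and 1.40 for Zardc30916(*ZaAP2*), and it was -1.33 for Zardc17043(*ZaPI*). For the ovule genes Zardc44971(*ZaSTK*) and Zardc33529(*ZaSTK*) it was 2.56 and 1.51, values that depend on the pseudocount because F3 is listed at 0. The *ZaSEP3* difference was not called without M3 replicate 3, at 0.90, or without M4 replicate 3, at 0.91. Among the flowering time genes it was 1.34 for Zardc02276(*ZaAGL15*), -1.59 for Zardc51954(*ZaSOC1*) and -1.18 for Zardc33025(*ZaFYF*).

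Among the sugar genes the difference was 2.33 for Zardc07320(*ZaSIP1*), 2.005 for Zardc54087(*ZaBGLU44*), 1.71 for Zardc27757, -1.56 for Zardc11215(*ZaTPPD*) and -1.01 for the *ZaTPS11* gene under an ID added by the authors. The last was not called without F3 replicate 3 (-0.98), F4 replicate 1 (-0.97), M3 replicate 1 (-0.96) or M4 replicate 3 (-0.98). Among the hormone genes it was 2.58 for Zardc24534(*ZaCKX5*), 1.31 for Zardc46645(*ZaCKX3*), -1.44 for Zardc54051(*ZaARR12*) and -1.64 for Zardc53596(*ZaAIP1*). The unannotated genes Zardc18664, Zardc51469 and Zardc00147 had differences of 4.10, 3.46 and -1.16. That of Zardc18664 was 2.93 without M3 replicate 1 and 5.005 without M3 replicate 2, with the M3 libraries at 16.7, 0 and 1.42 FPKM. The difference of Zardc00147 was -0.95 and not called without F4 replicate 1. The other 19 differences were called with each of the 12 libraries of F3, F4, M3 and M4 left out in turn.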

How the results depend on the processing

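A test against the fold threshold itself lowered the counts most, to 598 genes higher and 435 lower in F4*vs.*F3 (1033 in all, against 2966), to 17 called genes in the lists against 39, and to 412 called differences between the sexes against 2107. A pseudocount of 0.1 raised the counts to 2483 higher and 2249 lower (4732 in all). With single libraries left out, the counts were 1661 to 1689 higher, 1318 to 1417 lower, 2999 to 3084 in all, 36 to 40 in the lists and 2060 to 2188 for the difference between the sexes. That difference could not be fitted with female libraries alone. Replicate numbers did not pair the libraries, since the deviations of F3 and F4 libraries of the same number correlated at 0.0139, -0.0782 and 0.0215, and with the replicate block 2968 genes were called. The mean correlation of F3 and F4 libraries, 0.885, was 0.936 as Spearman's rho and 0.922 over all genes above 0. The F4 minus F3 difference in detected genes, -176 at 1 FPKM, turned to 22.0 at 0.1 FPKM and 83.0 at 5 FPKM, and the difference of -3.66 percentage points in the share of the 10 most abundant genes was -7.81 for the 100 most abundant. Among the 69 genes recomputed under the alternatives, 3 turned in direction. Zardc48948(*ZaAPL3*) stood at -0.052 after quantile normalization and at -0.040 to 0.078 with libraries left out, Zardc39213(*ZaAP1*) at -0.30 to 0.11, and Zardc10299(*ZaSEP2*) at -0.036 to 0.086. The test against the fold threshold left 21 of the 69 genes uncalled that had been called, and in a fit of the 6 F3 and F4 libraries *ZaSBE2.2*, *ZaSOC1* and Zardc41656(*ZaAP3*) were not called. The cause was not tested.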

Other observations

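Genes at the highest levels leaned to the lower side in F4. Of the 1723 tested genes with a mean of at least 100 FPKM, 121 (7.02%) were called lower and 95 (5.51%) higher, whereas of the 16794 genes from 1 to 10 FPKM, 679 (4.04%) were lower and 826 (4.92%) higher. Of the 10 most abundant genes, 7 were the same in F3 and F4, and of the 100 most abundant, 65. Among the 3772 tested genes under IDs added by the authors, 51 (1.35%) were called higher and 92 (2.44%) lower, against 4.57% and 3.51% of the 34962 genes of the published genome.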
